A study of Mus musculus with 12 samples.

Results

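Perineuronal net genes were followed in libraries labelled as lumbar spinal cord of MFN2 and WT mice. The 9 genes were Acan, Bcan, Ncan, Vcan, Hapln1, Hapln4, Tnr, Has3 and Crtac1, listed by name and matched by mouse symbol to the Ensembl identifiers of the count tables. All 9 were found among the 49548 genes counted, and all 9 passed the filter on low counts that left 15942 genes for testing. In normal cord they ran from Bcan at 358 ± 23.4 CPM (SD, n = 4) to Has3 at 4.08 ± 0.856 CPM (SD, n = 4), where CPM is a count scaled to the size of its library, with TMM factors between libraries. Acan was the only member whose 8 MFN2 values all lay below the 4 WT values, as was the case for 1.07% of all genes tested.

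A perineuronal net is a coat of extracellular matrix around the soma and proximal dendrites of some neurons. Its scaffold is hyaluronan, a long sugar polymer made at the cell surface by hyaluronan synthases, and the lecticans, which are chondroitin sulfate proteoglycans, attach to it through link proteins while tenascin-R joins the lecticans at their other end. In the spinal cord such nets surround many motor neurons and fast-firing interneurons, and they are known for limiting structural plasticity. The net proteins are made by neurons and by glial cells, so that RNA of whole tissue holds transcripts of both.

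Each library was labelled as the lumbar cord of 1 untreated mouse aged 30 days, a label that the markers of library 43 went against. The 8 MFN2 mice were MitoCharc1 animals, a model of Charcot-Marie-Tooth disease type 2A (CMT2A). They carry Tg(Eno2-MFN2*R94Q) of the line L51Ugfm/J on a B6;D2 background, in which the neuron-specific rat Eno2 promoter drives human MFN2 with the R94Q change beside the mouse's own Mfn2. The sample labels give the 4 WT mice as C57BL/6, whereas the study's methods call its WT animals littermates of the MFN2 mice, so that it is uncertain whether the strain background also differed between the genotypes. The transgene itself was not analysed here. The libraries were numbered 41 to 47 and 72 to 76: the first run of numbers held all 4 WT (44 to 47) and 3 MFN2 libraries (41 to 43), and the second run held 5 MFN2 libraries (72 to 76). What the number runs stand for is not given in the labels, and for libraries 72 to 76 the run and the genotype cannot be told apart. Total counts per library lay between 19359454 and 26738930, which put between 59 and 135 counts on Has3, the member with the fewest, and between 5572 and 9585 on Bcan.

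MFN2 library 43 stood apart from the other 11 libraries and went against its lumbar label. The 11 forebrain marker genes summed to 4776 CPM in it and to between 112 and 209 CPM in the others, with Camk2a, a kinase of forebrain synapses, the most abundant of them. All 11 forebrain markers were highest in library 43, none of them at 0 in every WT library. The 8 caudal Hox genes, which mark the lower levels of the cord, summed to 42.8 CPM in library 43 and to between 236 and 301 CPM in the others, with Hoxb8 the most abundant. The 7 motor neuron markers summed to 38.7 CPM in it and to between 170 and 418 CPM elsewhere. Library 43 was the lowest of the 12 for 28.6% of all genes tested and the highest for 25.9%. Among the members it was lowest for 4 (Acan, Bcan, Hapln4 and Has3) and highest for 3 (Ncan, Tnr and Crtac1). The members' log2 fold changes between MFN2 and WT are therefore given with and without it, as are the calls of named genes that it changed. For some lists the counts or medians without it are given as well. Its part in the remaining results is not given.

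Between the 8 MFN2 and the 4 WT libraries, 0 of the 9 members passed an FDR of 0.05 by the quasi-likelihood test of edgeR, adjusted over all 15942 genes after Benjamini and Hochberg, where 0.0% of all genes passed. Before adjustment 2386 genes had a p below 0.05, of which 1179 (7.4%) were up and 1207 (7.57%) were down in MFN2 mice, and Acan was the only member among them. The members' log2 fold changes, MFN2 over WT, ran from -0.56 for Acan to 0.34 for Ncan, with 5 above and 4 below 0. Their median was 0.053, and the median of all genes tested was 0.0038. The members' median turned negative without WT library 46 (-0.049) or MFN2 library 74 (-0.0069). DESeq2 called 200 genes (1.25%), with 0 members among them. Without library 43, 19 genes passed (0.12%), and Acan was the only member among them. The members' median was then 0.12, with 6 above and 3 below 0. Each library came from a separate mouse, and p-values measure the spread between mice.

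**Figure D1:**
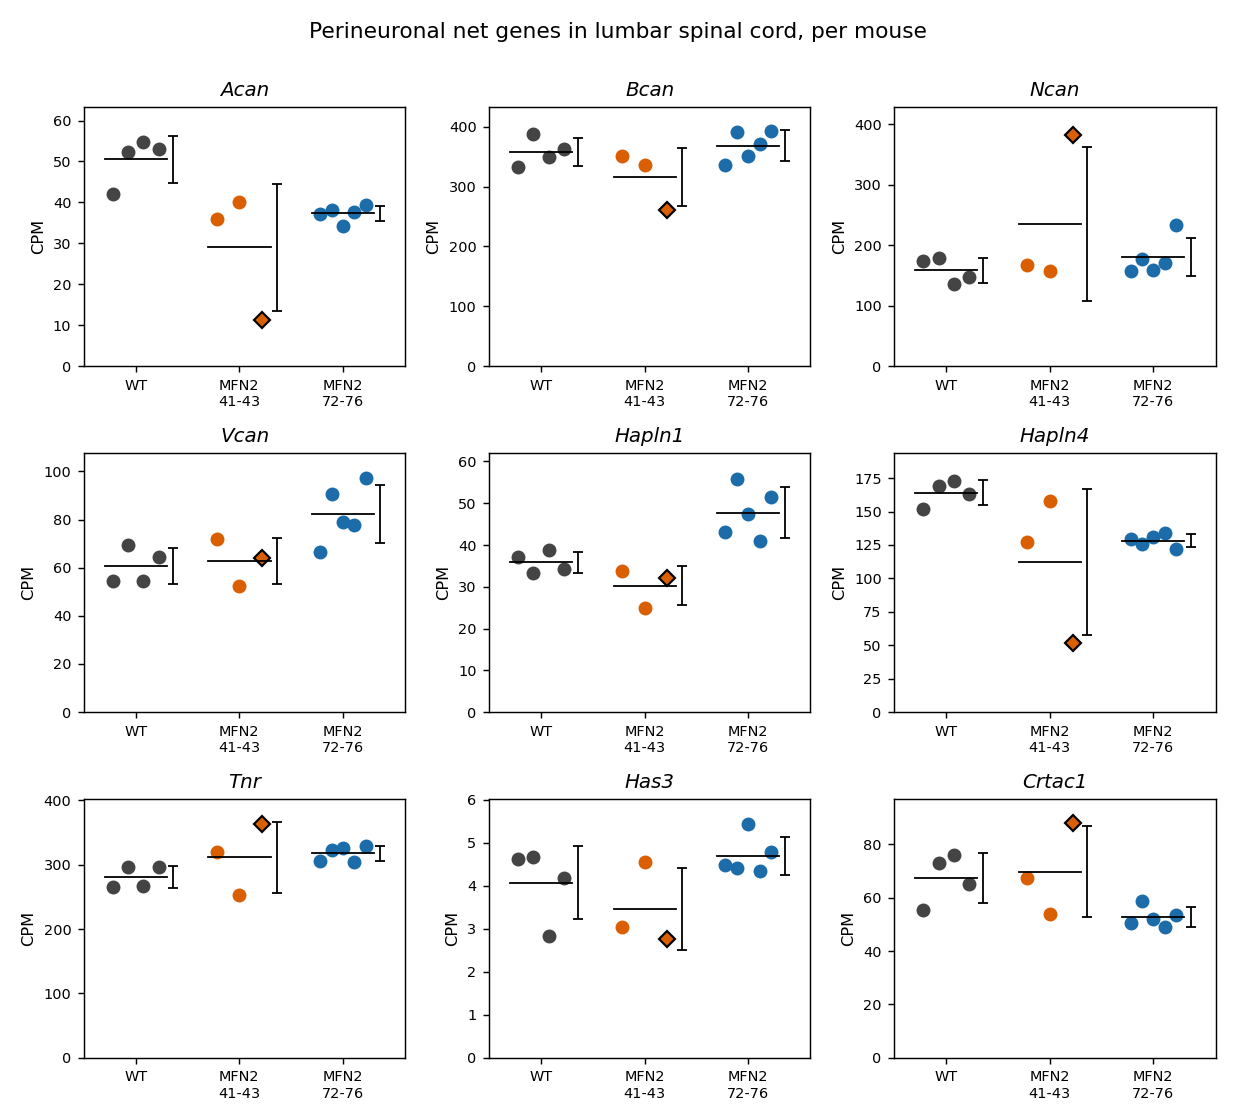
CPM (vertical axis, linear from 0) of each of the 9 genes in the 4 WT libraries, MFN2 libraries 41 to 43 and MFN2 libraries 72 to 76. Points are mice, horizontal lines are means, bars are 1 SD and the diamond is library 43, which holds the lowest Acan (11.4 CPM) and the highest Ncan (383 CPM).

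Set per length of exon sequence (RPKM, here the CPM divided by the summed length of annotated exons in kilobases), Bcan was by far the most abundant member at 86.6 ± 8.81 RPKM over all 12 libraries, above Hapln4 in all 12. Hapln4 followed at 34.7 ± 8.25 RPKM and exceeded Ncan in 10 libraries, the exceptions being 43 and 76. Ncan (26.0 ± 9.19 RPKM), Crtac1 (23.7 ± 4.64 RPKM) and Tnr (23.6 ± 2.43 RPKM) could not be ranked among themselves, because Ncan exceeded Crtac1 in only 8 of 12 libraries and Crtac1 exceeded Tnr in only 7. All of these lay above Hapln1 in all 12 libraries. Hapln1 (6.68 ± 1.496 RPKM), Acan (5.31 ± 1.52 RPKM) and Vcan (4.85 ± 0.975 RPKM) again crossed between libraries, with Hapln1 above Acan in 8 and Acan above Vcan in 6. Has3 was lowest in all 12 at 0.655 ± 0.132 RPKM. Per-length levels assume reads spread over whole transcripts, whereas the study's methods name both a 3′ mRNA protocol and a kit for total RNA, so that the order between genes of unlike length is less certain than the comparison of a gene between mice.

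**Figure D2:**
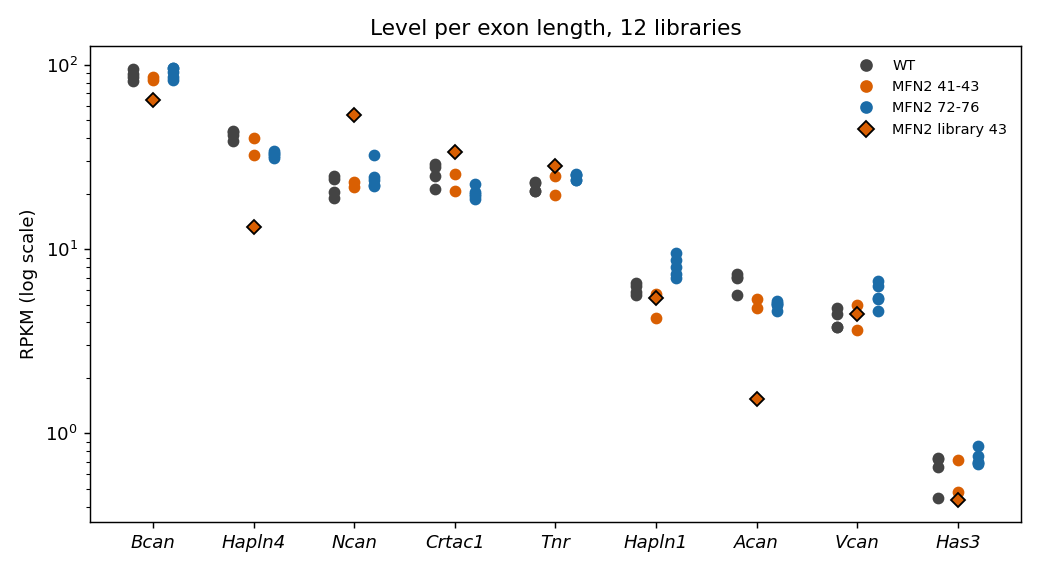
Level per exon length (vertical axis, RPKM on a log scale) of the 9 genes in the order of their mean over 12 libraries, with a point for each mouse coloured by genotype and number run. Bcan lies highest and Has3 lowest in every library, and the diamond of library 43 is the lowest point for Acan, Bcan, Hapln4 and Has3 and the highest for Ncan, Crtac1 and Tnr.

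The windows around the transcription start are shown for Acan, Hapln1 and Vcan, chosen after their values were seen as examples of a lower (Acan) and a higher mean level (Hapln1 and Vcan) in MFN2 libraries 72 to 76 than in WT. With library 43 kept in the fit, where 7.68% of all genes passed, Hapln1 alone of these passed. Without it, where 22.9% of all genes passed, all of these passed, as did Hapln4 and Crtac1, which are not shown. Each holds 250 bases before to 50 bases after the start that RefSeq annotates, on GRCm38.p6, read 5′ to 3′ on the strand of the gene. The Acan window is chr7:79052976-79053275 on the plus strand, the Hapln1 window is chr13:89540386-89540685 on the plus strand and the Vcan window is chr13:89742463-89742762 on the minus strand. For Acan and Hapln1 the RefSeq start is not the gene start given below, which comes from another annotation. The Acan window ends before that start (79053483), and the Hapln1 RefSeq start (89540636) lies inside the gene, which begins at 89539796. Capitals mark the letters of the GC box (GGGCGG, or CCGCCC for the other strand) and of the TATA box (TATAAA, or TTTATA for the other strand).
Acan: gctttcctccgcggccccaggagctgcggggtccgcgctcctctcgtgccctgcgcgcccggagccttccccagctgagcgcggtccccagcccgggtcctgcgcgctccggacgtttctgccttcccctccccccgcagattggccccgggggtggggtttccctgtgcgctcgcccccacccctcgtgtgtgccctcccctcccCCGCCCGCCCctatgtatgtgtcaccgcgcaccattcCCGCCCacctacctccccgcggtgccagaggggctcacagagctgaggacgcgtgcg
Hapln1: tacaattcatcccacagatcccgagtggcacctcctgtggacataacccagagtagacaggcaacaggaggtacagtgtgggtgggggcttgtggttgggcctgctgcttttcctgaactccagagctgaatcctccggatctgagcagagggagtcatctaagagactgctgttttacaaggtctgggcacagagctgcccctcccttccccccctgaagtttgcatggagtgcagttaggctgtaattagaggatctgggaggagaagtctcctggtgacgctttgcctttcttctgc
Vcan: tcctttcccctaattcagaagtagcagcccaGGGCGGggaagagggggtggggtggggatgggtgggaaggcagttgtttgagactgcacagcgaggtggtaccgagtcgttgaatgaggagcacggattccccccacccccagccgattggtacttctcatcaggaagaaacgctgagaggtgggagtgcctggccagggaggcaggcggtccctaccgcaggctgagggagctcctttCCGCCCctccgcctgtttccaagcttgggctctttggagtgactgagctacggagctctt
The Acan window held 3 GC boxes, at 44, 40 and 7 bases before the start, the upstream pair overlapping each other, and had a GC content of 74%. The Hapln1 window held 0 and had a GC content of 54.3%. The Vcan window held 2, at 219 and 10 bases before the start, and had a GC content of 61.0%. A GC box was found in 35.7% of the 32851 RefSeq windows of this length and a TATA box in 13.6%, and the median GC content was 52.7%. None of the 3 windows held a TATA box. Of the 9 members 7 had a window, and among these Ncan and Crtac1 held TATA letters. A match of letters is a description of the window and says nothing of a factor bound there.

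Acan encodes aggrecan, the lectican most closely tied to the formation of nets around neurons. It lies on chromosome 7 from 79053483 to 79115099 on the plus strand (ENSMUSG00000030607). Its level in the WT libraries was 42, 52.3, 54.8 and 53.0 CPM. In the 8 MFN2 libraries it ranged from 11.4 to 40.0 CPM with a median of 37.5 CPM. Every MFN2 mouse lay below every WT mouse, which 1.07% of all genes tested also showed in this direction. The nearest values were close, since the highest MFN2 library (42, 40.0 CPM) and the lowest WT library (44, 42 CPM) almost met. The lowest MFN2 value belonged to library 43, and the other 7 lay between 34.4 and 40.0 CPM. Mean levels were 34.3 ± 9.41 CPM (SD, n = 8) for MFN2 and 50.5 ± 5.78 CPM (SD, n = 4) for WT. On the log2 scale Acan differed by -0.56 ± 0.24 (SE), with an FDR of 0.311 by edgeR. Without library 43 the log2 fold change was -0.43 ± 0.071 (SE) and Acan fell with an FDR of 0.0444 in the same edgeR test, among 13 genes (0.0821%) that fell. The 7 remaining MFN2 libraries averaged 37.5 ± 1.94 CPM, and 1.48% of all genes showed the same lack of overlap downwards among them. Library 43 thus set both the larger difference and the larger spread.

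The direction for Acan was the same in both number runs. Libraries 41 and 42, which share their run with the WT libraries, held 35.9 and 40.0 CPM, below all 4 WT libraries, as 7.51% of all genes did. Their log2 fold change against WT was -0.41 ± 0.099 (SE) with an FDR of 0.548 in the edgeR fit of 3 groups without library 43, an alternative added after the data were seen, and 0 genes passed in that comparison (1229 at an unadjusted p under 0.05, Acan among them). Libraries 72 to 76 held between 34.4 and 39.3 CPM and their log2 fold change against the same WT libraries was -0.44 ± 0.076 (SE) with an FDR of 0.00175 in that fit, where 22.9% of all genes passed. With library 43 kept in the fit the value was -0.44 ± 0.26 (SE) with an FDR of 0.330. Both comparisons share the 4 WT libraries. A change in Acan transcripts of whole cord may come from fewer cells that make it or from less RNA in each, which cannot be told apart in bulk samples, here and for the members below.

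The other lecticans overlapped between the genotypes. Bcan encodes brevican, the lectican most abundant in adult brain and cord (ENSMUSG00000004892, chromosome 3 from 87987531 to 88000230, minus strand). Its levels were 332, 388, 350 and 362 CPM in WT and 262 to 393 CPM with a median of 351 CPM in MFN2 mice. Bcan's log2 fold change was -0.037 ± 0.096 (SE, FDR 0.863 in edgeR's test), and without library 43 it was 0.013, with the sign turned. Its spread was narrow, with an SD of 6.54% of the mean in WT and 6.71% in the 7 MFN2 libraries other than 43.

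Ncan encodes neurocan, a lectican made mostly during development and again after injury (chromosome 8 from 70093085 to 70120873, minus strand). WT libraries held 174, 179, 136 and 147 CPM. MFN2 libraries held 157 to 383 CPM with a median of 169 CPM, the highest being library 43 and the next library 76 at 234 CPM. For Ncan the log2 fold change was 0.34 ± 0.23 (SE, FDR 0.479 in edgeR's test) with library 43 and 0.14 ± 0.11 (SE, FDR 0.483) without it. Apart from libraries 43 and 76 all MFN2 values lay within the WT range.

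Vcan encodes versican, whose isoforms in the central nervous system come from oligodendrocyte lineage cells and surround nodes of Ranvier (chromosome 13 from 89655312 to 89742509, minus strand). WT libraries held 54.4, 69.6, 54.6 and 64.4 CPM, and MFN2 libraries held 52.4 to 97.4 CPM with a median of 74.7 CPM. The higher values were those of the second run, where 66.5, 90.7, 78.8, 77.6 and 97.4 CPM were found in libraries 72 to 76, and 4 of these 5 exceeded every WT library. Over all 8 MFN2 libraries Vcan had a log2 fold change of 0.30 ± 0.15 (SE, FDR 0.347 in edgeR's test), and without library 43 it was 0.33 (FDR 0.214). Libraries 41 and 42 were at 71.8 and 52.4 CPM, on either side of the WT range, with a log2 fold change against WT of 0.033.

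As shares of the summed lectican RPKM, Acan made up 4.88% to 6.32% in the WT libraries and 3.72% to 4.72% in the 7 MFN2 libraries other than 43, with no overlap. The nearest values were close, at 4.72% in MFN2 library 42 and 4.88% in WT library 44. This share rests on the same Acan values as above and is no separate result. How often shares of other genes separate the genotypes was not counted. In library 43 it made up 1.24%. Bcan took 70.9% to 74.1% in WT libraries, 68.5% to 72.9% in those 7 MFN2 libraries and 52.1% in library 43. Ncan took 16.3% to 21.0% in WT, 18.7% to 23.0% in the 7 MFN2 libraries and 43.1% in library 43. The summed lectican RPKM differed far less, from 114 in library 42 to 141 in library 76, with library 43 at 124. Library 43 therefore held another make-up of lecticans at a like total.

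**Figure D3:**
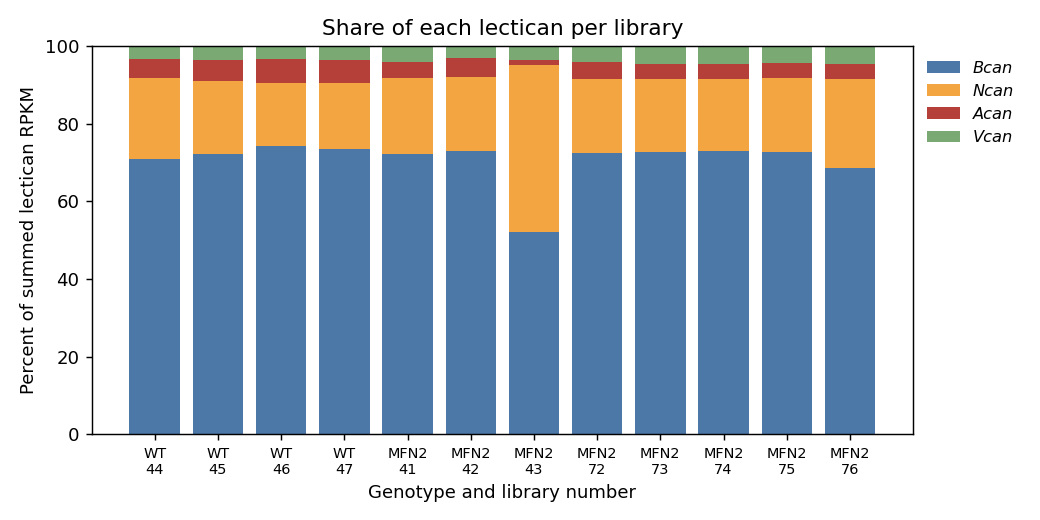
Share of each lectican (vertical axis, percent of the summed lectican RPKM) in the 12 libraries, stacked to 100%. Acan takes 4.88% to 6.32% in the 4 WT libraries and less in every MFN2 library, and library 43 shows 52.1% Bcan and 43.1% Ncan.

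Hapln1 encodes link protein 1, which locks aggrecan onto hyaluronan and without which nets are attenuated (ENSMUSG00000021613, chromosome 13 from 89539796 to 89611652, plus strand). WT libraries held 37.2, 33.3, 38.8 and 34.3 CPM. MFN2 libraries 41 to 43 held 33.8, 24.9 and 32.2 CPM, and MFN2 libraries 72 to 76 held 43.02, 55.9, 47.5, 41.03 and 51.4 CPM. The 5 libraries of the second run thus lay above all 7 of the first run, WT and MFN2 alike. Over all 8 MFN2 libraries the log2 fold change was 0.20 ± 0.18 (SE, FDR 0.591 in edgeR's test). It was 0.24 without library 43 (FDR 0.445) and 0.13 without library 73, and ran from 0.13 to 0.28 with 1 library left out. Hapln1 was at -0.24 for libraries 41 to 43 against WT and 0.41 ± 0.11 (SE, FDR 0.0436) for libraries 72 to 76 against WT, in the 3-group edgeR fit where 7.68% of all genes passed. Levels above every WT library in libraries 72 to 76 were found for 9.43% of all genes. Of the members, Hapln1 was the only one that passed in that fit, and its sign within the first run was opposite.

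Hapln4 encodes link protein 4, also called brain link protein 2, which is found at synapses and nets of brainstem and cerebellum with brevican (ENSMUSG00000007594, chromosome 8 from 70083457 to 70090862, plus strand). WT libraries held 152, 169, 173 and 163 CPM. MFN2 libraries held 51.5 to 158 CPM with a median of 128 CPM, and 7 of the 8 lay below every WT library, library 42 at 158 CPM being the exception. Hapln4 had a log2 fold change of -0.43 ± 0.20 (SE, FDR 0.343 in edgeR's test), and without library 43 it was -0.31 ± 0.067 (SE, FDR 0.0748). For libraries 41 and 42 against WT it was -0.21 (FDR 0.585) in edgeR's fit of 3 groups without library 43. In libraries 72 to 76 alone the level was 128 ± 4.61 CPM (SD, n = 5), below all WT libraries at 164 ± 9.08 CPM (SD, n = 4), where 10.2% of all genes lay below. For each 100 RPKM of Hapln4 there were 14.5 to 17.1 RPKM of Acan in WT and 13.3 to 16.9 RPKM in MFN2 libraries other than 43, and 11.6 RPKM in library 43. The ratio of Acan to Hapln4 thus overlapped between the genotypes. Hapln1 stood at 80.5 to 112 RPKM per 100 RPKM of Acan in WT, at 119 and 78.9 in libraries 41 and 42, at 137 to 185 in libraries 72 to 76 and at 357 in library 43.

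Tnr encodes tenascin-R, a glycoprotein made mainly by oligodendrocyte lineage cells that binds the free ends of the lecticans (chromosome 1 from 159523769 to 159931729, plus strand). WT libraries held 265, 296, 266 and 296 CPM. MFN2 libraries held 253 to 363 CPM with a median of 321 CPM, and 7 of 8 lay above every WT library, library 42 being the lowest of all 12. The difference was 0.17 ± 0.082 on the log2 scale (SE, FDR 0.354 in edgeR's test), and 0.14 without library 43. Libraries 41 and 42 against WT were at 0.027 (FDR 0.961) in edgeR's fit of 3 groups without library 43. The share of all genes with such a partial separation was not counted, here and for Vcan, Hapln4 and Crtac1. The highest WT library stood at 296 CPM and the lowest of libraries 72 to 76 at 304 CPM, without overlap, as for 9.43% of all genes in this direction.

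Has3 encodes a hyaluronan synthase that makes shorter chains (chromosome 8 from 106870242 to 106884566, plus strand). WT libraries held 4.63, 4.66, 2.84 and 4.17 CPM, and MFN2 libraries held 2.77 to 5.43 CPM with a median of 4.45 CPM. The genotypes overlapped throughout. Has3 differed by 0.053 ± 0.19 on the log2 scale (SE, FDR 0.909 in edgeR's test), which was 0.12 without library 43 and turned negative without WT library 46 (-0.087) or MFN2 library 74 (-0.0069). Has3 also shares 352 exon bases with Chtf8 on the other strand, which stood at 25.6 to 49.4 CPM, and the strand setting of the counting is not given in the sources used here, so that part of its few counts may belong to Chtf8. Tnr and Crtac1 share 443 and 203 exon bases with antisense genes and carry the same uncertainty.

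Crtac1 encodes LOTUS, a secreted and membrane-bound antagonist of the Nogo receptor, which in turn binds inhibitors of axon growth (chromosome 19 from 42283035 to 42431783, minus strand). WT libraries held 55.5, 73.1, 76.2 and 65.0 CPM. MFN2 libraries held 49.0 to 88.0 CPM with a median of 53.7 CPM, the highest being library 43. Libraries 72 to 76 held 50.7, 58.9, 51.9, 49.0 and 53.4 CPM, and 4 of these 5 lay below every WT library. Crtac1 had a log2 fold change of -0.19 ± 0.15 (SE, FDR 0.534 in edgeR's test), and without library 43 it was -0.29 ± 0.096 (SE, FDR 0.133). Within the first run it was 0.048 with library 43 and -0.15 without it.

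**Figure D4:**
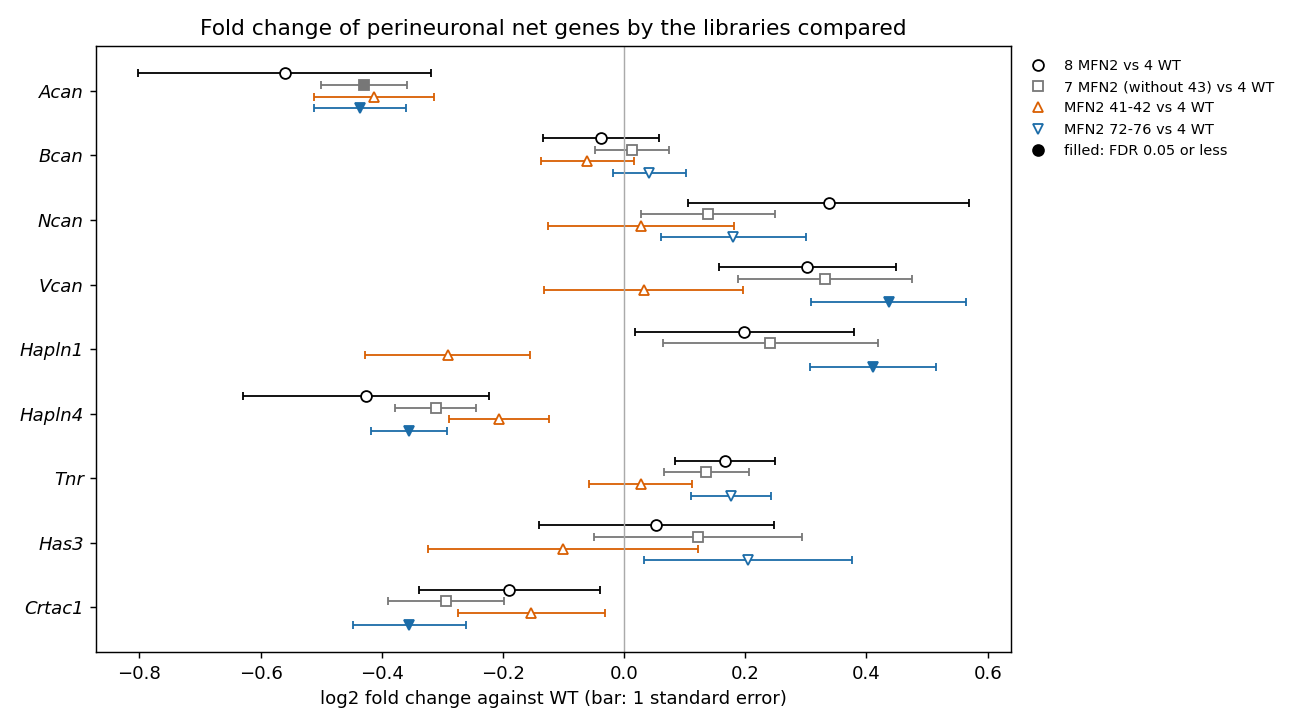
Log2 fold change against the 4 WT libraries (horizontal axis, bars 1 standard error) of the 9 genes for 8 MFN2 libraries, 7 without library 43, libraries 41 to 42 and libraries 72 to 76, the last pair from the 3-group fit without library 43. Filled symbols have an FDR of 0.05 or less, and Hapln1 lies at -0.29 for libraries 41 to 42 and at 0.41 for libraries 72 to 76.

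The number of members that passed depended on the libraries compared. For libraries 72 to 76 against WT in the 3-group edgeR fit with library 43 kept, 1224 genes passed (7.68%). With library 43 left out of the same fit, an alternative added after the data were seen, 3621 genes passed (22.9%), 1716 higher and 1905 lower. Among these were 5 of the 9 members. Acan fell by 0.44 (FDR 0.00175), Hapln4 fell by 0.36 (FDR 0.00193) and Crtac1 fell by 0.35 (FDR 0.0173) on the log2 scale, all by edgeR's test. Hapln1 rose by 0.41 (FDR 0.0142) and Vcan rose by 0.44 (FDR 0.0310). Tnr was at 0.18 (FDR 0.0673), Has3 at 0.20 (FDR 0.419), Ncan at 0.18 (FDR 0.301) and Bcan at 0.042 (FDR 0.654). In this comparison the genotype and the number run cannot be told apart. Within the first run, 0 members and 0 genes passed in edgeR's test of libraries 41 to 43 against WT (2381 genes at an unadjusted p under 0.05), where Acan was at -0.79 ± 0.31 (SE, FDR 0.282).

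To see how the members differed between mice of the same genotype, MFN2 libraries 72 to 76 were set against MFN2 libraries 41 to 43. Hapln1 was the only member of the 9 that passed, with a log2 fold change of 0.66 ± 0.12 (SE, FDR 0.0124 in edgeR's test), where 1339 genes passed (8.4%). It averaged 47.8 ± 6.06 CPM (SD, n = 5) in the second run and 30.3 ± 4.71 CPM (SD, n = 3) in the first, with no overlap, as 9.62% of all genes showed in this direction. Without library 43 its log2 fold change was 0.70 ± 0.13 (SE, FDR 0.00608), where 14.0% of genes passed. In a fit of the 8 MFN2 libraries alone the FDR was 0.0538, where 2.19% passed. The members' median log2 fold change was 0.22, and 0.15 without library 43, and that of all genes was 0.0044. Vcan (0.39, FDR 0.0932), Crtac1 (-0.40, FDR 0.0896) and Bcan (0.22, FDR 0.161) did not pass and had an unadjusted p under 0.05, as did 2067 (13%) of all genes upwards and 2509 (15.7%) downwards. Without library 43 Vcan was at 0.40 (FDR 0.117), whereas Crtac1 (-0.20, FDR 0.268) and Bcan (0.10, FDR 0.386) no longer had a p under 0.05. Acan was at 0.36 (FDR 0.448) with library 43 and at -0.023 (FDR 0.898) without it. Without library 42, Hapln1, Has3 (0.69) and Crtac1 (-0.56) passed, 3 members among 2185 genes (13.7%).

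Other genes of the same matrix were read from 5 lists, none of which had a gene past an FDR of 0.05 between the 8 MFN2 and the 4 WT libraries. Of the other hyaluronan, link and tenascin genes 7 were tested, and their median log2 fold change was -0.27. Tnfaip6, which modifies hyaluronan, stood at 15.0 ± 2.56 CPM in WT and 3.10 CPM in library 43, with a log2 fold change of -0.73 (FDR 0.312 in edgeR's test). Hapln2, the link protein of nodes of Ranvier, was at 118 ± 28.3 CPM in WT, with a log2 fold change of -0.64 (FDR 0.382). Both fell in libraries 72 to 76 against WT without library 43, by 0.78 (FDR 0.0386) and 0.68 (FDR 0.0333), where 22.9% of all genes passed. With library 43 kept in that fit 0 of the 7 passed. Of the 10 other matrix proteoglycans, Gpc1, a heparan sulfate proteoglycan of the cell surface, was at -0.20 (FDR 0.308) and Bgn, the small proteoglycan biglycan, at -0.34 (FDR 0.372), with a list median of 0.050, and 0.024 without library 43.

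Genes that build chondroitin sulfate, the sugar chains of the lecticans, numbered 18 tested. Of these, 0 passed between MFN2 and WT (median -0.047, and -0.145 without library 43), and 6 of the 18 fell and 0 rose in libraries 72 to 76 against 41 to 43 (median -0.26), where 8.4% of all genes passed in either direction. Among them were Chpf (-0.50, FDR 0.00776 in edgeR's test), a polymerising factor, Chsy1 (-0.45, FDR 0.0369), a chondroitin synthase, and B3galt6 (-0.58, FDR 0.0201) and B3gat3 (-0.29, FDR 0.0358), which build the linker to the core protein. Without library 43, 5 fell, where 14.0% of all genes passed, and Chsy1 no longer passed (-0.25, FDR 0.0639). Library 43 was the highest of the 12 for 11 of the 20 genes on this list. In libraries 72 to 76 against WT, 2 of the 18 fell with library 43 kept in the fit, where 7.68% of all genes passed, and 6 fell without it, where 22.9% passed (median -0.25 in both). A direct test between these comparisons was not made.

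Matrix proteases, their inhibitors and hyaluronidases numbered 16 tested genes, with a median log2 fold change of -0.17 between MFN2 and WT and 0 past the threshold. Mmp14, a membrane-bound metalloprotease, averaged 35.6 ± 1.11 CPM (SD, n = 4) in WT and 19.3 CPM in libraries 72 to 76. Over all 12 libraries it differed by -0.67 ± 0.15 on the log2 scale (SE, FDR 0.254 in edgeR's test), and it fell by 0.52 (FDR 0.0197) between the MFN2 runs. Timp2, an inhibitor of metalloproteases, fell by 0.39 (FDR 0.0210) between the runs and was at -0.049 between MFN2 and WT. Between the runs 0 of the 16 rose and 2 fell, where 8.4% of all genes passed. Without library 43, 1 rose and 4 fell between the runs, where 14.0% passed. In libraries 72 to 76 against WT without library 43, 1 of the 16 rose and 5 fell, where 22.9% of all genes passed. Adamts4, a protease that cleaves lecticans and was chosen after its values were seen, fell by 0.38 there (FDR 0.0489). With library 43 kept in that fit, 1 rose and 3 fell, where 7.68% passed. Of 11 receptors and net ligands tested, 0 passed between MFN2 and WT (median 0.26, and 0.066 without library 43, which was the highest of the 12 for 10 of the 13 genes listed). Rtn4r, the Nogo receptor that LOTUS binds, was at 4.80 ± 1.37 CPM in WT and 30.7 CPM in library 43. It and Ptprf, a phosphatase of the receptor family that binds chondroitin sulfate, fell between the runs with library 43 kept, with log2 fold changes of -1.73 (FDR 0.0435) and -0.40 (FDR 0.0240). Without library 43, Ptprf was at -0.29 (FDR 0.0244) and Rtn4r no longer passed (-0.49, FDR 0.151).

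Marker genes of the cells that could carry or make nets were read in the same fit, and none of the 13 lists had a gene past the threshold between the 8 MFN2 and the 4 WT libraries. The 8 markers of fast-firing, net-bearing neurons summed to 5910, 7656, 8067 and 8821 CPM in WT libraries and to 1520 CPM in library 43, with Nefm, a neurofilament subunit, the most abundant. In the 7 other MFN2 libraries the sum ran from 5622 to 9333 CPM. Pvalb, the calcium buffer of fast-firing interneurons and of proprioceptive neurons, averaged 59.7 ± 7.80 CPM in WT and 41.6 CPM in the 7 MFN2 libraries other than 43, with a log2 fold change of -0.64 ± 0.24 (SE, FDR 0.280 in edgeR's test) and -0.52 (FDR 0.0783) without library 43. The sum of the list overlapped between the genotypes. Of its 8 genes, 7 had a log2 fold change below 0 (median -0.24) over all 12 libraries. Without library 43, 6 were below 0 (median -0.13), 1 fell past the threshold, where 0.12% of all genes passed, and 4 had an unadjusted p under 0.05 downwards, as did 10.4% of all genes. In libraries 72 to 76 against WT without library 43, 3 of the 8 fell, where 22.9% of all genes passed, and with library 43 kept 0 passed. Between the MFN2 runs without library 43, 2 of the 8 rose and 0 fell, where 14.0% of all genes passed. With library 43 kept 0 passed between the runs, where 8.4% did. The part of this cell type in the Acan result was not tested.

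Motor neuron markers summed to 195, 236, 234 and 418 CPM in WT libraries and to between 170 and 305 CPM in the 7 MFN2 libraries other than 43, with Prph the most abundant. Mnx1, a transcription factor of these cells, was at -0.47 (FDR 0.543 in edgeR's test) and Slc18a3, their vesicular acetylcholine transporter, at -0.44 (FDR 0.551). Of the 7 motor neuron markers 6 had a log2 fold change below 0 (median -0.24), and without library 43, 4 did (median -0.073). All 7 markers were lowest in library 43. Markers common to all neurons summed to between 2838 and 3624 CPM over all 12 libraries, with Snap25 the most abundant and library 43 the highest. Syt1, a calcium sensor of release, was at 147 ± 28.6 CPM in WT and 1159 CPM in library 43.

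Of the glial lists, astrocyte markers summed to 7488, 8452, 7496 and 7677 CPM in WT libraries and to between 5546 and 6939 CPM in libraries 72 to 76. Library 41 held the highest sum of all 12 at 9210 CPM, and libraries 42 and 43 held 6712 and 5973 CPM. Slc1a2 was the most abundant of the list. Gfap, their intermediate filament, averaged 2066 ± 508 CPM in WT and 978 CPM in libraries 72 to 76, with a log2 fold change of -0.82 ± 0.45 (SE, FDR 0.387 in edgeR's test) over all MFN2 libraries. Aldh1l1, a folate enzyme of astrocytes, was at -0.23 (FDR 0.336). In libraries 72 to 76 against WT without library 43, 4 of the 7 astrocyte markers fell and 0 rose, where 22.9% of all genes passed. With library 43 kept in that fit 0 of the 7 passed. Oligodendrocyte precursor markers summed to between 333 and 486 CPM, with Olig1 the most abundant, and Gpr17, a receptor of committed precursors, rose by 0.47 (FDR 0.0342) in libraries 72 to 76 against 41 to 43, where 8.4% of all genes passed. It was the only 1 of the 6 precursor markers tested that passed there, with 3 above and 3 below 0 (median 0.044). Markers of mature oligodendrocytes summed to 8133 CPM in library 43 and to between 21100 and 33950 CPM in the others, with all 6 lowest in library 43. Mbp was at -0.38 (FDR 0.526) and Mag at -0.24 (FDR 0.596). Of these 6 markers 5 had a log2 fold change below 0 (median -0.18), and without library 43, 4 did (median -0.067). Microglial markers summed to between 74.02 and 154 CPM, with library 43 highest and Csf1r the most abundant. They included Cx3cr1 and Tmem119, which fell by 0.70 (FDR 0.0140) and 0.87 (FDR 0.0372) between the runs. Without library 43, Cx3cr1 fell by 0.57 (FDR 0.0122), and Tmem119 no longer passed, at -0.75 (FDR 0.0521). The part of these cells in the members' levels was not tested.

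Endothelial markers summed to between 79.9 and 122 CPM, with Flt1 the most abundant, Cldn5 at -0.56 (FDR 0.280 in edgeR's test) and Ly6c1 at -0.34 (FDR 0.294). Fibroblast and meningeal markers summed to between 96.5 and 439 CPM, with Col1a1 the most abundant, Slc6a13 at 0.61 (FDR 0.675) and Dcn at 0.44 (FDR 0.677). Of the 5 fibroblast genes tested 3 were above 0 (median 0.39), and without library 43, 2 of 4 were (median -0.083). The sums of both lists overlapped between the genotypes. Schwann cell markers summed to 202 CPM in library 43 and to 201.5 CPM in MFN2 library 73, and to at most 3.75 CPM in each of the other 10. Library 73 also held the highest Hapln1 level (55.9 CPM), whereas library 43 held 32.2 CPM of Hapln1, below every WT library. Without library 73 the log2 fold change of Hapln1 between the runs was 0.57 (FDR 0.0307 in edgeR's test). The part of these cells in the Hapln1 result was not tested. Of the 5 cerebellar markers only Calb1 passed the filter, at 27.4 ± 3.96 CPM in WT and 97.1 CPM in library 43 (log2 fold change 0.63, FDR 0.343), and Gabra6 was at 0 there. Without library 43 the log2 fold change of Calb1 was 0.33, and it did not pass. Hoxc8 (-0.76, FDR 0.503) and Hoxd10 (1.13, FDR 0.554) spread widely among mice of both genotypes. Of the 8 forebrain genes tested 5 fell between the runs while library 43 was kept, where 8.4% of all genes passed. Among them were Ddn, Icam5, Slc17a7 and Camk2a, with log2 fold changes of -5.93, -4.45, -7.04 and -2.65 (FDR 0.0262, 0.0291, 0.0310 and 0.0369). Without library 43, 0 of the 8 passed, where 14.0% of all genes did.

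For libraries 72 to 76 against WT, where most calls of members were made, the marker lists gave these counts in edgeR's test. With library 43 kept in the fit, where 7.68% of all genes passed, 2 of 5 microglial markers fell (Cx3cr1 and Tmem119), 1 of 6 precursor markers rose (Gpr17), 1 of 4 endothelial markers fell (Cldn5) and 0 passed on the other 10 lists. Without library 43, where 22.9% passed, these 4 genes passed again, and Olig1 also fell on the precursor list. Besides the fast-firing and astrocyte markers given above, 1 of 6 markers common to all neurons rose and 1 fell, 1 of 8 forebrain markers rose and the 1 cerebellar marker tested rose. On the lists of motor neurons, mature oligodendrocytes, fibroblasts, Schwann cells and caudal Hox genes 0 passed.

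**Figure D5:**
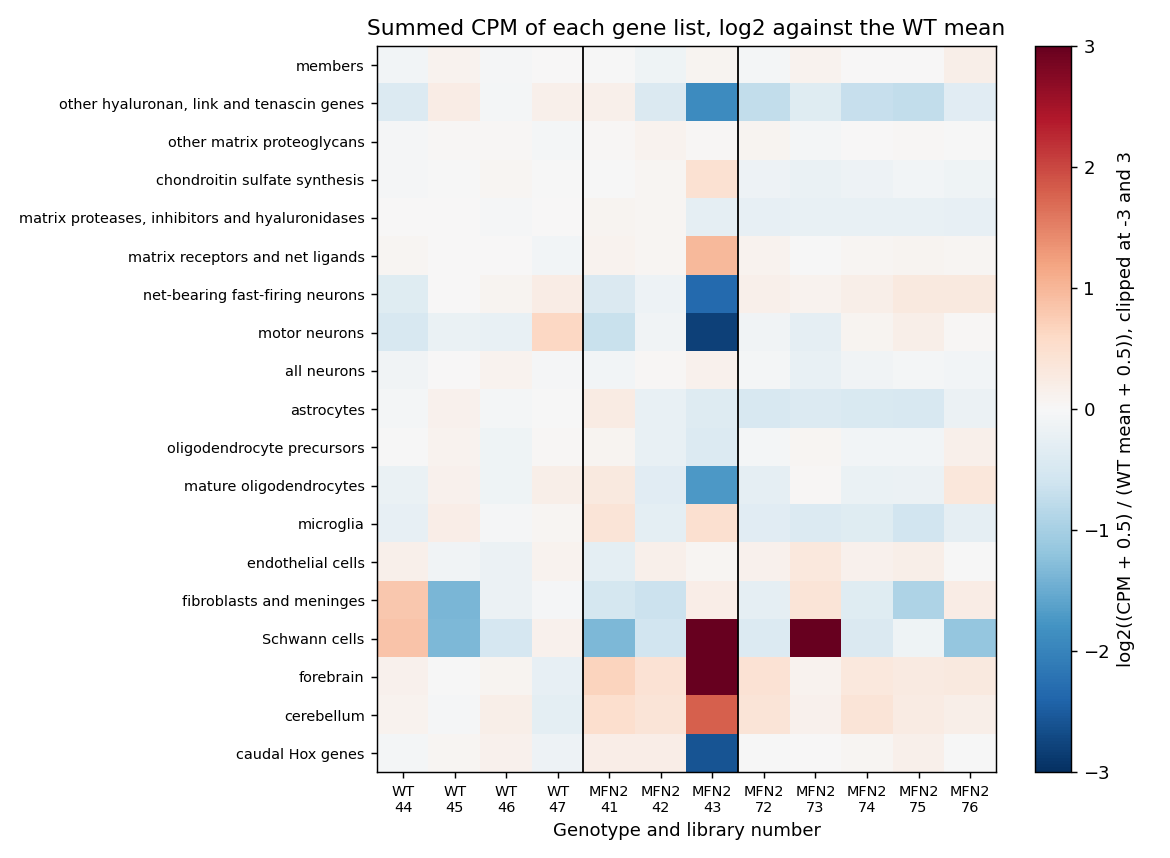
Summed CPM of the 9 genes and of each list (rows) in the 12 libraries (columns), coloured as log2 of the sum over the WT mean with 0.5 CPM added to both, clipped at -3 and 3. The column of library 43 departs most, at 4776 CPM of forebrain markers and 42.8 CPM of caudal Hox genes, while the row of the 9 genes stays near 0.

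The summed CPM of the 9 members hid these differences. It was 1117, 1265, 1152 and 1189 CPM in WT libraries and between 1081 and 1324 CPM in MFN2 libraries, with library 43 at 1257 CPM. By mean CPM over all 12 libraries Bcan and Tnr were its largest parts, and neither separated the genotypes.

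The genes whose levels varied most like each member were sought among 11569 genes with a mean of at least 5 CPM, as Pearson's r of log2 CPM over 11 libraries without number 43, after the means of WT, MFN2 41 to 42 and MFN2 72 to 76 had been taken off. Genes of a library share its depth and composition, and r is given as a description. Nsun2, an RNA methyltransferase, was most like Acan (r = 0.97, rho = 0.91), followed by Zfyve28 and Epha4 (r = 0.94 each). Lima1, Nol7 and Neu4 were most like Bcan (r = 0.97, 0.96 and 0.96), and Neu4 is also on the oligodendrocyte precursor list. Sox2, a transcription factor of glial progenitors, and Ptn, a ligand of chondroitin sulfate, were most like Ncan (r = 0.95 and 0.93), with Anapc16 next (r = 0.92). Vcan varied with Tmem100, Zcchc24 and Olig2, the last a transcription factor of the oligodendrocyte lineage (r = 0.98, 0.97 and 0.97). St3gal4, Serinc3 and Kbtbd8 were most like Hapln1 (r = 0.96, 0.95 and 0.94). Ssx2ip, Tmem191c and Dnajc21 were most like Hapln4 (r = 0.95, 0.95 and 0.94). Tnr varied with Arhgef37, Cx3cr1 and Rnpep (r = 0.96, 0.94 and 0.94), Has3 with Aebp2, Wdr70 and Gpc4 (r = 0.96, 0.86 and 0.85), and Crtac1 with Vps26c, Rtca and Eva1a (r = 0.95, 0.95 and 0.94). No member was among the 3 genes most like another member, although Has3, whose mean lay under 5 CPM, was not among the genes searched. With only 3 genes taken from 11569, that absence carries little weight. Each r is among the highest of 11569 over 11 libraries, so that high values can arise without any relation.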

How the data were processed

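The libraries, 1 per mouse, were labelled as lumbar cord of 8 MFN2 and 4 WT mice, a label that the markers of library 43 went against. Trimming and STAR alignment to GRCm38 were done by the authors, who deposited raw whole-number counts for each Ensembl gene. How reads were counted, and on which strand, is not given in the sources used here. Symbols, exon lengths and overlaps came from GENCODE M21.

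Genes above 1 CPM in at least 3 libraries entered edgeR 4.0.16 (R 4.3.3) with TMM factors and a legacy, robust quasi-likelihood fit, and p-values were adjusted after Benjamini and Hochberg (FDR 0.05). MFN2 was compared with WT, and MFN2 libraries 72 to 76 with 41 to 43 in a fit of 3 groups. Standard errors come from the F statistic. No pair of libraries of the same genotype held matching counts. Counts were simulated with 200 changed genes (log2 fold change 1, dispersion 0.05). For MFN2 against WT 186 (93%) were recovered with 5 false calls among 15880 genes, and for the comparison of runs 144 (72%) with 4 false calls among 15853. Smaller changes were not simulated. All simulated libraries shared the same mean profile, with no library like 43 and no shift between the number runs. The shares recovered therefore do not give the power of the comparisons in the real libraries.

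As alternatives, filters, scalings and tools were exchanged (DESeq2 1.42.0, limma 3.58.1), number runs were compared with WT or modelled as a covariate, and libraries were left out 1 at a time. The members, the lists and the rule for named genes were chosen with earlier results of these data known. The rule took from each list up to 4 genes past the threshold in either comparison or else the 2 with the lowest p, the most abundant gene of each marker list, and the 3 genes most like each member. Hapln3, Adamts4, Syt1, Chtf8 and Gabra6 were named after their values were seen. Some genes that the rule took are not reported here. Promoter windows came from RefSeq on GRCm38.p6.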

Additional observations from a re-analysis of the deposited data

Results flagged for a closer look

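Among the 18 groups of a member and a genotype, 5 held a library whose gap to its nearest neighbour took an unusually large part of the whole range, where chance gives about 1 in 20 groups. All 5 were MFN2 groups and in each of them the library was number 43. The 5 are therefore not independent, and the rate of 1 in 20 cannot be set against their number. Library 43 was the lowest of the 12 for 28.6% of all genes tested and the highest for 25.9%. The share of all genes flagged in this way was not counted. For Acan the gap was 0.802 of the range, with library 43 lowest. For Bcan it was 0.559 and for Hapln4 0.662, both with library 43 lowest. For Ncan it was 0.659 and for Crtac1 0.533, both with library 43 highest. The WT group of Acan came near the limit, with library 44 lowest and a gap of 0.81 of the range.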

How the results depend on the processing

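No paired analysis was possible because no library number occurs in both genotypes. Between MFN2 and WT, 0 genes passed under every filter, scaling and test except DESeq2 (200). The count was 1224 for libraries 72 to 76 against WT, 3621 when library 43 was also left out, and 1 for libraries 41 to 47 with or without library 43. Leaving out 1 library gave 0 to 19 genes and 0 to 1 members. The members that passed numbered 1 for libraries 72 to 76 against WT and 5 without library 43. Between the MFN2 runs, 815 genes passed with no filter, 2536 with DESeq2 and 342 in the 8 MFN2 libraries alone, where 0 members passed. Leaving out 1 library gave 501 to 2217 genes and 1 to 3 members.

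Some log2 fold changes turned sign, the cause of which was not tested. Between MFN2 and WT, Bcan was at 0.015 scaled by library size only and 0.042 in libraries 72 to 76, with and without library 43, and ran from -0.071 to 0.013 with 1 library left out. Hapln1 was at -0.24 in libraries 41 to 43 and with the run as a covariate, -0.23 in libraries 41 to 47, -0.29 in libraries 41 to 42 and with the run as a covariate without library 43, and -0.28 in libraries 41 to 47 without 43. Has3 was at -0.23 in libraries 41 to 43 and with the run as a covariate, -0.22 in libraries 41 to 47, -0.10 in libraries 41 to 42 and with the run as a covariate without 43, and -0.090 in libraries 41 to 47 without 43, and ran from -0.087 to 0.12 with 1 library left out. Crtac1 was at 0.048 in libraries 41 to 43 and with the run as a covariate, and 0.067 in libraries 41 to 47. Between the runs, Tnr was at -0.017 with the filter of edgeR and -0.00019 in the 8 MFN2 libraries alone. With 1 library left out it ran from -0.10 to 0.15, Acan from -0.023 to 0.65, Ncan from -0.62 to 0.15 and Hapln4 from -0.15 to 0.52. Added after the data were seen were libraries 41 to 47 without 43, and libraries 41 to 42 and 72 to 76 against WT without library 43. Between MFN2 and WT, Acan kept its sign in all 28 alternatives, from -0.79 to -0.40 with an FDR from 0.00175 to 0.862. Ncan, Vcan, Hapln4 and Tnr also kept theirs in all 28. For Acan every MFN2 value lay below every WT value, so that leaving out libraries could hardly turn its sign. Has3 rests on 59 to 135 counts per library, which limits its precision.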

Other observations

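Each lectican gene lies beside a link protein gene in the mouse genome, with 0 protein-coding genes between them in GENCODE M21. Acan and Hapln3 on chromosome 7 end 2 bases apart, Ncan and Hapln4 on chromosome 8 lie 2.2 kb apart, Bcan and Hapln2 on chromosome 3 lie 21.5 kb apart and Vcan and Hapln1 on chromosome 13 lie 43.7 kb apart. Their log2 fold changes between MFN2 and WT are given side by side, and no difference between neighbours was tested. Acan was at -0.56 and Hapln3 at -0.042 (FDR 0.935 in edgeR's test), with Hapln3 at only 0.966 ± 0.247 CPM in WT. Ncan was at 0.34 and Hapln4 at -0.43. Bcan was at -0.037 and Hapln2 at -0.64. Vcan (0.30) and Hapln1 (0.20) had the same sign. Both rose in libraries 72 to 76 against WT without library 43, where 22.9% of all genes passed. With library 43 kept, where 7.68% passed, Hapln1 rose and Vcan did not pass (FDR 0.056 in edgeR's test). In libraries 41 to 42 against WT their signs differed, with Vcan at 0.033 and Hapln1 at -0.29.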
